A study of Mus musculus with 5 samples.

Results

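The genes described here are 10 enzymes of methionine, folate and serine metabolism in mouse liver, Mat1a, Mat2a, Gnmt, Ahcy, Bhmt, Cbs, Shmt2, Mthfd2, Phgdh and Psat1. They were chosen by name for their place in these pathways, with earlier results of these data known. They were taken from the deposited expression table as the rows that carry those symbols, 10 of 46095 gene records. The study asked what follows in the liver when the splicing factor gene Srsf2 is removed from hepatocytes. RNA was sequenced as 1 library each from the liver of a 2M control, the liver of a 2M HKO mouse, the liver of a 12M control, and a section each of non-tumor and tumor liver at 12M, in C57BL/6 mice. The controls were Srsf2f/f mice, which carry loxP-flanked Srsf2 alleles without Cre and which the labels call wild type (hereafter WT). HKO mice carry the same alleles with Alb-cre, a Cre transgene under the albumin promoter that is active in hepatocytes, so the other cells of the liver keep the gene. No drug or diet is named for any of these animals. Both sections bear 1 animal number in their labels, and the label of the tumor gives no genotype. The study reports that most HKO mice died young, so that a surviving HKO liver stands for a minority, and that Srsf2 protein was found again in adult survivors. The sample codes of the 12M libraries start with M13, while their titles and ages give 12 months.

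Hepatocytes hold most of the body's capacity to handle methionine. The liver form of methionine adenosyltransferase converts methionine to S-adenosylmethionine, the methyl donor of the cell, and after the methyl group is given away the product is hydrolysed to homocysteine, which is either methylated back to methionine or passed on to cysteine. The folate cycle carries single carbon units that come mainly from serine, in the cytosol and in mitochondria, and supplies the synthesis of purines and thymidylate. The pathway that makes serine from glucose is best known for its activity in growing and tumor tissue.

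Levels are given as FPKM, fragments scaled to gene length and to the library's total, so that levels of different genes can be set side by side. There were no replicates. No p-values are therefore given, and every interval below is a 95% exact binomial interval, for the ratio of fragments in 2 libraries or for a share of fragments, which covers counting error only and not the difference between animals. Between 34969835 and 36104176 fragments per library were worked back from the FPKM values, and in all libraries 3 fragments were taken as the floor for a count of 0. Srsf2 itself was at 14.6 FPKM in the 2M WT liver and 22.7 in the 2M HKO liver, and between 15.6 and 17.6 in the 3 libraries from 12M, so its level does not separate the labelled genotypes. This value takes in the cells that keep the gene and is no check of the labels. All 29 hepatocyte markers on the list were above 0 in every library, and their summed level lay between 94867 and 120291 FPKM. Single markers differed more than the sum. By the rule given further on, 7 were called higher and 4 lower at 2M, beside 19.2% and 6.98% of all genes. In the tumor 1 was higher and 3 lower than in non-tumor tissue, beside 17.7% and 8.43%. Markers of other cells also differed between the groups. The 10 markers of biliary epithelium summed to 23.8 and 28.8 FPKM in the WT livers, 418 in the 2M HKO liver, 274 in non-tumor and 2150 in tumor tissue, with Cldn7 at 0 in all but the tumor. These sums are mostly Spp1, at 382 FPKM in the 2M HKO liver, 248 in non-tumor and 2035 in tumor tissue, and the list did not move as a whole. Against non-tumor tissue Sox9, Spp1 and Tspan8 were called higher in the tumor, while Krt7 was called lower at -3.76, and the duct markers Krt19 and Epcam, under 5 FPKM, stood at -4.42 and -1.73. The 12 macrophage markers summed to 1690 FPKM in the 2M HKO liver and to between 308 and 485 in the others. In the tumor 5 of 11 were called lower than in non-tumor tissue and none higher, beside 8.43% and 17.7% of all genes. The Kupffer cell markers Clec4f and Marco were at 1 fragment each against 2758 and 1796, and Timd4 was at 0. Vsig4, Cd5l and Csf1r were also called lower. Csf1r fell less steeply, from 24.0 FPKM in non-tumor to 8.73 in tumor tissue, a log2 ratio of -1.45. The remaining macrophage markers on the list were not called. Cd68 and Trem2 stood at 0.78 and 0.93, and C1qa, C1qb, C1qc and Adgre1 between -0.13 and -0.32. Endothelial markers summed to 57.2 FPKM in non-tumor and 296 in tumor tissue and red cell markers to 335 and 1349, but neither list moved as a whole. Of 6 endothelial markers over 5 FPKM, 5 were called higher and 1 lower, Clec4g at -5.83. Stab2 and Lyve1, under 5 FPKM, stood at -3.52 and -2.44. Of 4 red cell markers 3 were called higher and 1 lower, Alas2 at -1.35. The shares of all genes were 17.7% higher and 8.43% lower. At 2M neutrophil markers summed to 2.12 in WT and 141 in HKO and stellate cell markers to 90.9 and 365. The part of these cells in the members' levels was not tested. The 10 genes of dividing cells summed to 99.5 FPKM in the 2M HKO liver, to 25.0 in the tumor and to between 5.05 and 12.5 in the others. In bulk tissue, fewer cells of a type and less RNA per cell cannot be told apart.

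Taken as a group, the 10 genes split. In the tumor the 3 genes that make and use S-adenosylmethionine and clear its product, Mat1a, Gnmt and Ahcy, were lower than in non-tumor tissue, Psat1 of serine synthesis was higher, as were Phgdh and Mthfd2 from levels too low to be called, and Bhmt was between its levels in the other libraries. Their share of all fragments was 0.741% in the 2M WT liver, with an interval of 0.738% to 0.744%, 0.891% in the 12M WT liver, 0.628% in the non-tumor section, 0.553% in the 2M HKO liver and 0.298% in the tumor. A gene was called higher or lower where the log2 ratio of FPKM + 0.1 was past 1 in size and the level exceeded 5 FPKM in either library. By this rule 1 member was higher in tumor than in non-tumor tissue, Psat1, against 17.7% of the 7618 genes over the minimum. The 3 members named above were lower, against 8.43% of those genes. The median log2 ratio was -0.29 over the 10 members and 0.23 over all genes past the minimum. Mat2a, Mthfd2 and Phgdh stayed under 5 FPKM in both libraries and could not be called.

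In the 2M HKO liver no member was called higher than in the 2M WT liver, where 19.2% of 7220 genes were, and 2 members, Gnmt and Ahcy, were called lower, where 6.98% of genes were. The median log2 ratio was -0.05 over the members and 0.23 over all genes past the minimum. Here 6 of the 10 members were over the minimum, and Psat1, at 3.03 FPKM in the HKO liver, was not among them. With a minimum of 1 FPKM in place of 5, 3 members were higher at 2M, Mthfd2, Psat1 and the scaffold record of Mat2a described further on, against 25.8% of 11777 genes. The same lower minimum gave 3 higher members in the tumor against non-tumor tissue, Mthfd2, Phgdh and Psat1, against 20.2% of 12063 genes. Against the 12M WT liver, the same 4 genes as against non-tumor tissue were called in the tumor, 1 higher, beside 27.4% of 7553 genes, and 3 lower, against 9.49%. These 2 comparisons share the tumor library, and each of them shares its other library with the next comparison, so they are not separate observations. Between the non-tumor section and the 12M WT liver no member was called in either direction, against 6.14% of 6481 genes higher and 1.73% lower. The WT livers of both ages gave no call among members either, against 2.39% higher and 2.09% lower of 6114 genes. Expressed genes as a whole were shifted between libraries. For 9099 genes log2 FPKM was centred on each gene's mean over the 5 libraries, and the median was taken in each library. This median was higher by 0.16 in tumor than in non-tumor tissue and by 0.25 in 2M HKO than in 2M WT. Against 12M WT it was higher by 0.19 in non-tumor tissue and by 0.35 in the tumor. Rescaling by the median ratio, used below, takes out these differences.

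**Figure D1:**
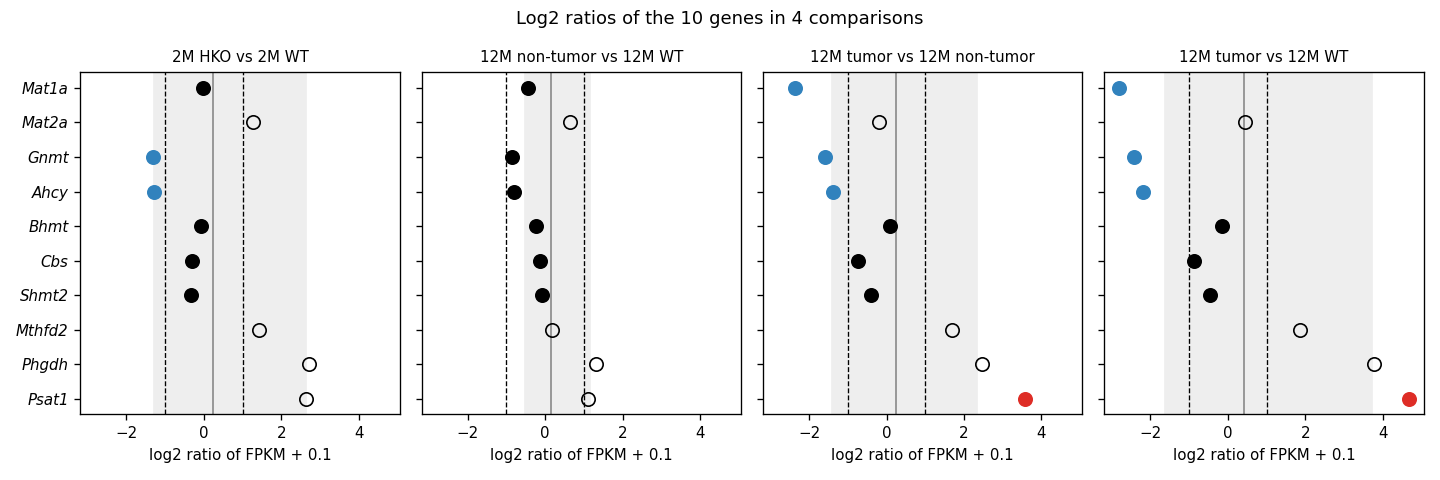
Log2 ratio of FPKM + 0.1 (x axis) of each of the 10 genes in 4 comparisons. Blue and red points are called lower and higher, black points have over 5 FPKM but are not called, open circles have at most 5 FPKM in both libraries, dashed lines mark -1 and 1, the grey line is the median of all genes over the minimum and the grey band their 5th to 95th percentile; Mat1a, Gnmt and Ahcy lie left of the dashed line in both tumor panels, and Psat1 is the red point at 3.59 and 4.68.

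Mat1a encodes the liver form of methionine adenosyltransferase, which makes S-adenosylmethionine, and lies on chromosome 14 of GRCm38 between 41105008 and 41124428. It was measured at 775 FPKM in the 2M WT, 764 in the 2M HKO and 934 in the 12M WT liver, and 689 in non-tumor and 133 in tumor tissue. The tumor stood alone, and the other 4 libraries lay within 1.36-fold of each other, which is the fold between the 12M WT liver and the non-tumor section. Mat1a was 5.19-fold lower in tumor than in non-tumor tissue, with an interval of 5.10 to 5.27, and 7.03-fold lower than in the 12M WT liver. Relative to the shift over all expressed genes the log2 ratio to non-tumor tissue was -2.54 in place of -2.37. Among all gene records Mat1a ranked between 74 and 92 by level in the first 4 libraries and 467 in the tumor. At 2M the log2 ratio of HKO to WT was -0.02, which became -0.27 after rescaling by the median ratio and 0.18 after rescaling by hepatocyte markers, so that its sign depended on the scaling. Mat2b, which encodes a regulatory subunit that binds the extrahepatic enzyme, lay between 14.1 and 18.1 FPKM in all libraries. Mat1a therefore exceeded Mat2b by 40.5-fold or more in the 4 other libraries and by 7.34-fold in the tumor.

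Mat2a encodes the methionine adenosyltransferase of most other tissues, and the deposited table does not measure it in the way it measures the other members. Its only record lies on an alternate scaffold, while RefSeq GRCm38.p6 also places the gene on chromosome 6 from 72432796 to 72439556. The record held 55 fragments in the 2M WT, 151 in the 2M HKO and 26 in the 12M WT liver, and 46 in non-tumor and 40 in tumor tissue, or 0.561, 1.49, 0.264, 0.465 and 0.395 FPKM. The 2M HKO liver was highest, and the intervals of the ratios between the other neighbours in the order of levels all included 1. Of 10 records on that scaffold, Ggcx, the gene of the vitamin K-dependent carboxylase, stood at 0.0834 to 0.634 FPKM and the highest value of all was 9.59 FPKM, for Vamp8 in the 12M WT liver. Among 980 protein-coding records on such scaffolds, 11.7% passed 5 FPKM in any library, against 36.4% of 21097 on chromosomes. How fragments were shared between the scaffold and the chromosome is not given in the sources used here, so no level of Mat2a and no ratio of Mat1a to Mat2a is read from this record. Mettl16, which in human cells modifies and stabilises the Mat2a transcript, lay between 1.12 and 1.95 FPKM with the highest value in the tumor.

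Gnmt and Ahcy act in sequence. Gnmt, on chromosome 17 from 46725664 to 46729189, encodes glycine N-methyltransferase, which uses surplus S-adenosylmethionine to methylate glycine, and Ahcy, on chromosome 2 from 155059310 to 155074497, encodes the hydrolase that splits the spent donor into adenosine and homocysteine. Their promoters are shown because the pair had the most similar levels across libraries of all genes compared with Gnmt. Each window runs from 250 bases before to 50 bases after the RefSeq start in GRCm38.p6 on the minus strand, chr17:46729116-46729415 for Gnmt and chr2:155074448-155074747 for Ahcy, with CpG dinucleotides in capitals.
Gnmt promoter: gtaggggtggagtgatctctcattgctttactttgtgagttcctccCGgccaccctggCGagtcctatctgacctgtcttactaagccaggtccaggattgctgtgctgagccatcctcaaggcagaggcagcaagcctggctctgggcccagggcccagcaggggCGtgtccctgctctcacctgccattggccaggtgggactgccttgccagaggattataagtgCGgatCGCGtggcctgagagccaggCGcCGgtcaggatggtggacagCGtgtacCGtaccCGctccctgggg
Ahcy promoter: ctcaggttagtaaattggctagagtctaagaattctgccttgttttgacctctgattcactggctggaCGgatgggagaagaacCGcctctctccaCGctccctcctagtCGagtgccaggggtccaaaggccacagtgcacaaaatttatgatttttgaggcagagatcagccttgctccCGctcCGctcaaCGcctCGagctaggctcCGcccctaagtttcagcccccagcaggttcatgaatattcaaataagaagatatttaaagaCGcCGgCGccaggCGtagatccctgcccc
The Gnmt window holds 11 CpG and 62.0% G and C, and the Ahcy window 13 CpG and 52.7%, beside medians of 7 CpG and 52.7% over 32851 such windows.

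Gnmt was at 1767 FPKM in the 2M WT, 709 in the 2M HKO and 2239 in the 12M WT liver, and 1238 in non-tumor and 414 in tumor tissue. Ahcy was at 384, 158, 430.5, 246 and 94.0 FPKM in the same order. Both genes thus had the order 12M WT, 2M WT, non-tumor, 2M HKO and tumor, and every step of that order was beyond counting error. Gnmt was 2.99-fold lower in tumor than in non-tumor tissue (interval 2.94 to 3.05), 5.41-fold lower than in the 12M WT liver and 2.49-fold lower in the 2M HKO than in the 2M WT liver (interval 2.46 to 2.53). For Ahcy the tumor was 2.62-fold lower than non-tumor tissue (interval 2.55 to 2.68), and the 2M HKO liver 2.43-fold lower than its control (interval 2.38 to 2.47). The non-tumor section was 1.81-fold lower than the 12M WT liver for Gnmt and 1.75-fold lower for Ahcy, log2 ratios of -0.85 and -0.81 that miss the threshold. Only Gnmt passed it, at -1.04, when the libraries were rescaled by the median ratio. The Gnmt level was between 4.40 and 5.20 times that of Ahcy in all 5 libraries. Against Mat1a the ratio of Gnmt was not steady, at 2.28 in the 2M WT liver, 0.928 in the 2M HKO liver and 3.11 in the tumor. An Ahcy pseudogene, Gm9826, was listed at 13.5 FPKM in the 2M WT liver and 2.62 in the tumor in the same order of libraries, and fragments may be shared between it and Ahcy.

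Hepatocytes differ along the lobule, and the summed markers of each zone were lowest in the tumor, though not every single marker was. The 8 markers of hepatocytes near the central vein summed to 5293 FPKM in the 2M WT, 883 in the 2M HKO and 7951 in the 12M WT liver, and 3703 in non-tumor and 168 in tumor tissue. This sum has the order of Gnmt and Ahcy with a wider range. In the WT livers and the non-tumor section it is mostly Cyp2e1, a cytochrome of that zone. Cyp2e1 was at 4225 FPKM in the 2M WT and 6579 in the 12M WT liver, 2689 in non-tumor tissue and 68.2 in the tumor. Of the other markers only Slc1a2 had the same order. Glul, Axin2 and Lgr5 were highest in non-tumor tissue, Cyp1a2 was highest in the 2M WT liver, and Rhbg was lowest in the 2M HKO liver. The 9 markers of hepatocytes near the portal vein summed to 5470, 4114, 4131, 4037 and 1327 FPKM. Apart from the low tumor value this sum did not follow the order of Gnmt and Ahcy. Against non-tumor tissue 6 of the 9 were called lower in the tumor and 1 higher, beside 8.43% and 17.7% of all genes. The higher one, Aldh1b1, was at 39.1 FPKM in non-tumor and 192 in tumor tissue. Sds was lowest in the 12M WT liver and Cyp2f2 in the 2M HKO liver. The part of either zone in the levels of Mat1a, Gnmt and Ahcy was not tested.

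**Figure D2:**
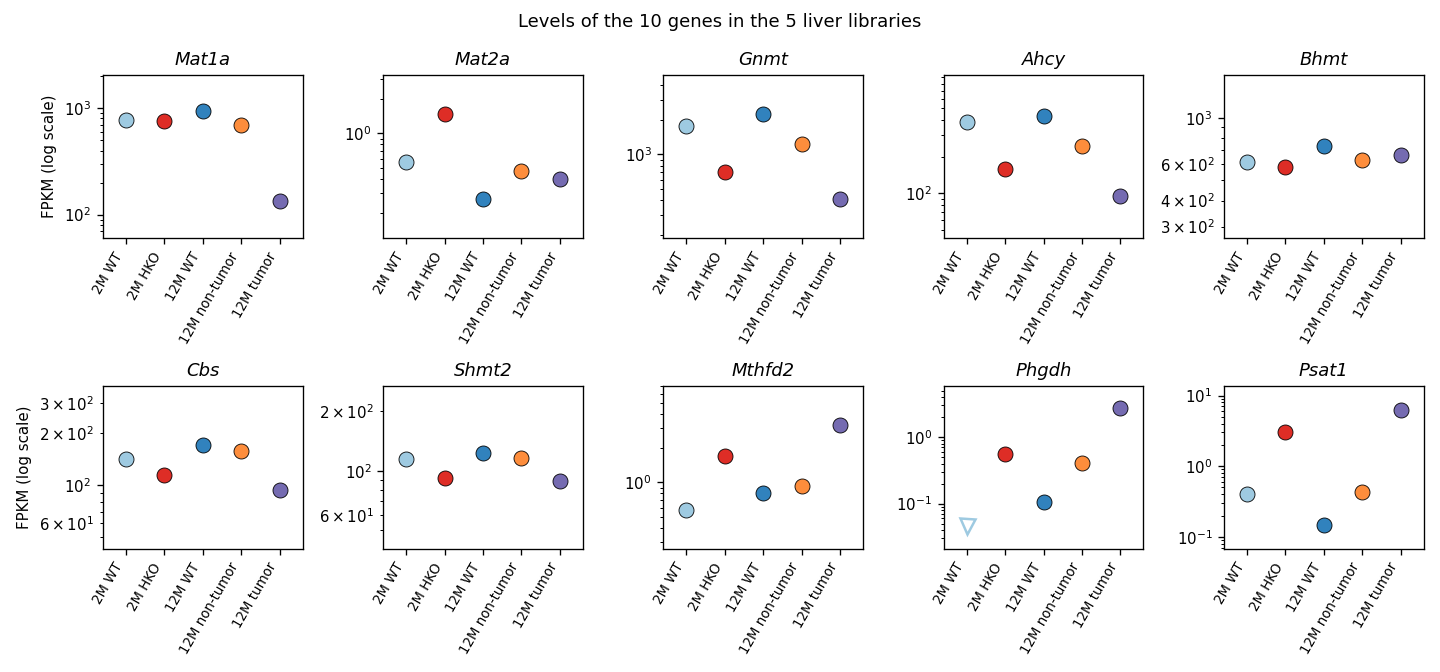
FPKM on a log scale (y axis) of each of the 10 genes in the 5 libraries, 1 point per library; the open triangle marks Phgdh in the 2M WT liver, where no fragment was counted, drawn at the level of the floor. Mat1a is low in the tumor alone at 133 FPKM, Gnmt and Ahcy are low in the 2M HKO liver and the tumor, Bhmt is nearly level, and Mthfd2, Phgdh and Psat1 are highest in the tumor.

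Homocysteine has 2 ways onward in the liver. Bhmt, on chromosome 13 from 93616891 to 93637758, encodes the enzyme that methylates homocysteine back to methionine with betaine as donor. Bhmt was at 616 FPKM in the 2M WT, 582 in the 2M HKO and 731 in the 12M WT liver, and 624 in non-tumor and 663 in tumor tissue. The highest and lowest libraries differed by 1.26-fold, the smallest range among the 10 members, and the non-tumor section and the 2M WT liver did not differ beyond counting error. Its log2 ratio of tumor to non-tumor tissue was 0.09, or -0.07 after rescaling by the median ratio. Bhmt ranked 87 among all records in the tumor and between 96 and 113 elsewhere, so that it stood above Mat1a and Gnmt in the tumor and below them in the 4 other libraries. Bhmt2, a related gene whose enzyme takes its methyl group from S-methylmethionine, behaved differently, with 87.1, 81.7, 91.8, 97.0 and 41.3 FPKM and a log2 ratio of -1.23 in the tumor against non-tumor tissue, a call that was lost after rescaling by hepatocyte markers. The level of Bhmt was between 6.43 and 7.97 times that of Bhmt2 in the 4 other libraries and 16.1 times in the tumor. Mtr, which encodes methionine synthase and uses folate for the same step, was at 0.443 to 1.12 FPKM.

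Cbs, on chromosome 17 from 31612623 to 31637233, encodes cystathionine beta-synthase, which joins homocysteine to serine and so commits it to cysteine. Its level was 142 FPKM in the 2M WT, 115 in the 2M HKO and 172 in the 12M WT liver, and 158 in non-tumor and 94.1 in tumor tissue. All steps in this order were beyond counting error, but the whole range was 1.83-fold and no comparison gave a call. The tumor was 1.68-fold lower than non-tumor tissue, with an interval of 1.64 to 1.73. Against the 12M WT liver its log2 ratio was -0.87, which became -1.22 after rescaling by the median ratio. Cth, the gene of the next enzyme, which releases cysteine, was at 216, 233, 190, 165 and 74.3 FPKM and was called lower in the tumor against non-tumor tissue at -1.15, a call that was lost after rescaling by hepatocyte markers. Further along, Suox, the gene of sulfite oxidase, was at 89.9 FPKM in non-tumor tissue and 18.5 in the tumor, a log2 ratio of -2.27. Gss, the gene of glutathione synthetase, went the other way, at 36.9 FPKM in the 2M WT, 88.9 in the 2M HKO and 41.9 in the 12M WT liver, and 46.3 in non-tumor and 99.97 in tumor tissue. Its log2 ratio was 1.27 at 2M and 1.11 for tumor to non-tumor tissue, and the latter call was lost after rescaling by the median ratio.

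The genes of the folate cycle inside mitochondria did not move as a block. Shmt2, on chromosome 10 from 127517123 to 127522444, encodes the mitochondrial hydroxymethyltransferase that takes a carbon unit from serine and leaves glycine. Shmt2 was at 114 FPKM in the 2M WT, 91.6 in the 2M HKO and 123 in the 12M WT liver, and 116 in non-tumor and 88.8 in tumor tissue, a range of 1.38-fold. The non-tumor section and the 2M WT liver did not differ beyond counting error, and neither did the 2M HKO liver and the tumor. Its cytosolic counterpart Shmt1 was at 67.8, 34.7, 84.1, 75.0 and 24.9 FPKM and was called lower in tumor than in non-tumor tissue at -1.59. At 2M its log2 ratio was -0.96, which misses the threshold. The level of Shmt2 was therefore 1.46 to 1.69 times that of Shmt1 in the WT livers and the non-tumor section, 2.64 times in the 2M HKO liver and 3.57 times in the tumor. The exons of Shmt2 share 32 bases with those of Ndufa4l2 on the other strand, which was at 46.8 FPKM in the tumor and at 1.60 to 2.62 elsewhere. Whether fragments were assigned by strand is not given in the sources used here.

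Mthfd2, on chromosome 6 from 83305704 to 83326035, encodes the mitochondrial methylenetetrahydrofolate dehydrogenase of embryonic and tumor cells. It was counted with 46 fragments in the 2M WT, 141 in the 2M HKO and 65 in the 12M WT liver, and 75 in non-tumor and 264 in tumor tissue, or 0.577, 1.71, 0.811, 0.931 and 3.21 FPKM. The tumor and the 2M HKO liver were the highest libraries, and the steps among the other 3 were within counting error. Mthfd2 was 3.44-fold higher in tumor than in non-tumor tissue, with an interval of 2.65 to 4.51, and 2.97-fold higher in the 2M HKO than in the 2M WT liver, with an interval of 2.11 to 4.24. It overlaps Mob1a on the other strand, with no shared exonic base. Mthfd1, the trifunctional enzyme of the cytosol, was at 68.6, 56.5, 73.7, 68.8 and 38.6 FPKM, so that it exceeded Mthfd2 by 119-fold in the 2M WT liver, 33.0-fold in the 2M HKO liver and 12.0-fold in the tumor. Mthfd1l, which releases formate in mitochondria, was at 0.558, 4.62, 0.342, 1.51 and 2.90 FPKM. Its highest library was the 2M HKO liver, where it stood at a log2 ratio of 2.84 to WT. Mthfd2l, an isozyme of Mthfd2, lay between 0.117 and 0.780 FPKM, and Aldh1l2, which oxidises formyl folate in mitochondria, between 0.0611 and 0.537. Aldh1l1, the cytosolic gene of that last reaction, was at 379 FPKM in non-tumor tissue and 145 in the tumor, a log2 ratio of -1.39.

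**Figure D3:**
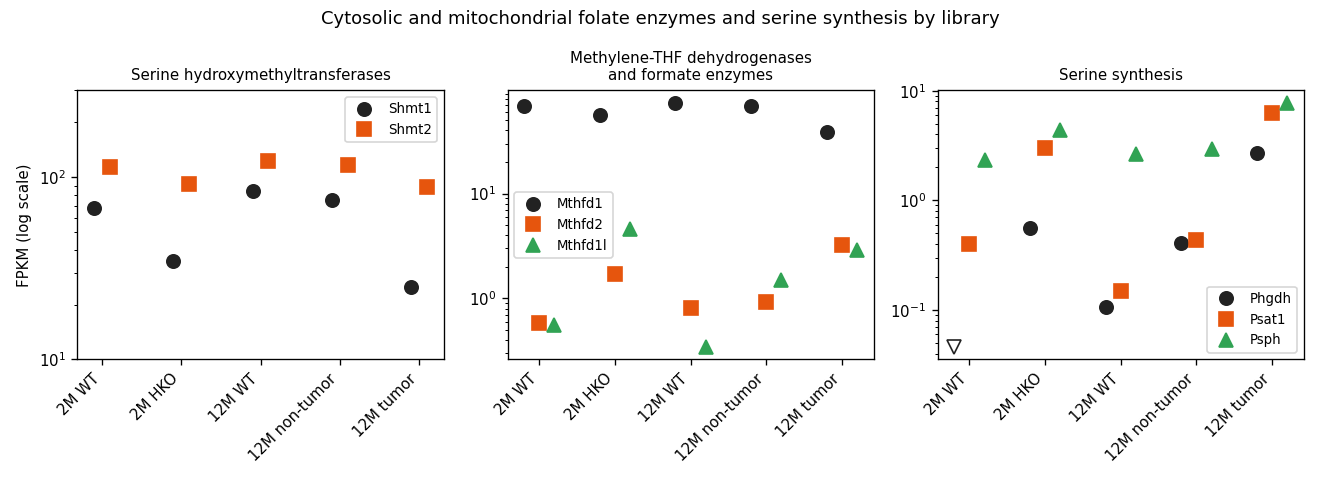
FPKM on a log scale (y axis) in the 5 libraries for Shmt1 and Shmt2 (left), Mthfd1, Mthfd2 and Mthfd1l (middle) and Phgdh, Psat1 and Psph (right), 1 point per gene and library, with the open triangle for Phgdh at 0 in the 2M WT liver. The cytosolic genes Shmt1 and Mthfd1 are lowest in the tumor, at 24.9 and 38.6 FPKM, and the 3 genes of serine synthesis are highest there.

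The first genes of serine synthesis were close to the limit of detection in the WT livers, and the whole pathway was highest in the tumor. Phgdh, on chromosome 3 from 98313171 to 98339969, encodes the dehydrogenase that draws an intermediate of glycolysis into serine synthesis, and Psat1, on chromosome 19 from 15905123 to 15925059, the aminotransferase of the next step. Their promoters are shown because these 2 members had the highest ratios of the 10. They are windows of the same kind on the minus strand of GRCm38.p6, chr3:98339920-98340219 for Phgdh and chr19:15925010-15925309 for the Psat1 start that matches the deposited record, again with CpG in capitals.
Phgdh promoter: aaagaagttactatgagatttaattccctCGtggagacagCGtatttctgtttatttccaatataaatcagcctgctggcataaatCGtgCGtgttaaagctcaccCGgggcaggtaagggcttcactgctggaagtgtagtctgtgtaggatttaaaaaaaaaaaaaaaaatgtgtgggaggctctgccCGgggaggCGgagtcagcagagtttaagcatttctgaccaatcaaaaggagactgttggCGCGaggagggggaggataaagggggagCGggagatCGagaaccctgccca
Psat1 promoter: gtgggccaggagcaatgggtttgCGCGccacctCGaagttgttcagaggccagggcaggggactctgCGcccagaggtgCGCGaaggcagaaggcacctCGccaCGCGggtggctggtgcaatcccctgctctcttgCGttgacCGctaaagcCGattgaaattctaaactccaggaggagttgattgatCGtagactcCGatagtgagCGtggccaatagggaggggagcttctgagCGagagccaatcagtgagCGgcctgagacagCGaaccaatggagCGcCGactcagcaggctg
The windows hold 11 and 20 CpG. RefSeq lists a further Psat1 start whose window has 30 CpG. The letters TGATGNAA, a form of the element that C/EBP and Atf factors bind, were searched on both strands and occur in 0 of the 10 windows of the 9 members with an entry, and in 3.97% of all windows. The E-box CACGTG, the same on both strands, occurs in 1 member window, that of Cbs, and in 7.15% of all. These are matches of letters within 300 bases and say nothing of binding.

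Phgdh was counted with no fragment of 34969835 in the 2M WT, 38 in the 2M HKO and 7 in the 12M WT liver, and 27 in non-tumor and 183 in tumor tissue. In FPKM the last 4 were 0.563, 0.106, 0.409 and 2.71. The tumor was the highest and the WT livers the lowest, and the 2M HKO liver and the non-tumor section did not differ beyond counting error. Phgdh was 6.63-fold higher in tumor than in non-tumor tissue (interval 4.41 to 10.3). At 2M it was 12.3-fold higher in the HKO than in the WT liver when the latter is set to the floor of 3 fragments. The counting interval of that ratio, on 38 fragments against 0, starts lower, at 9.50. Non-tumor tissue was 3.84-fold above the 12M WT liver (interval 1.63 to 10.4). At 2.71 FPKM or less it was under the minimum in every library.

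Psat1 was counted with 32 fragments in the 2M WT, 251 in the 2M HKO and 12 in the 12M WT liver, and 35 in non-tumor and 521 in tumor tissue, or 0.399, 3.03, 0.149, 0.432 and 6.29 FPKM. The tumor was highest and the 2M HKO liver next, while the non-tumor section and the 2M WT liver did not differ beyond counting error. Psat1 was 14.6-fold higher in tumor than in non-tumor tissue (interval 10.3 to 21.1), 42.3-fold higher than in the 12M WT liver (interval 24.0 to 82.3) and 7.60-fold higher in the 2M HKO than in the 2M WT liver (interval 5.25 to 11.3). Non-tumor tissue exceeded the 12M WT liver by 2.90-fold (interval 1.47 to 6.14). Its call in the tumor rests on a level just above the minimum of 5 FPKM, and at 2M the level was below it. The WT livers themselves differed by 2.68-fold, higher at 2M, with an interval of 1.34 to 5.71 on counts of 32 and 12. Psph, the phosphatase that ends the pathway, was at 2.33, 4.41, 2.63, 2.96 and 7.80 FPKM, with a log2 ratio of 1.37 in the tumor against non-tumor tissue that was called higher and of 0.89 at 2M. All 3 genes of the pathway thus had their highest level in the tumor and their second highest in the 2M HKO liver, which are also the libraries with the highest levels of Spp1 and Tspan8 but not of Krt19 and Krt7.

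The other genes of these pathways were taken from 13 lists, 105 genes beside the members. Against non-tumor tissue, 78 of them were over the minimum in the tumor, of which 12, or 15.4%, were higher and 17, or 21.8%, were lower, beside 17.7% and 8.43% of all genes. The median log2 ratio of these 78 was -0.20. At 2M, 11 of 74 were higher and 5 lower, or 14.9% and 6.76%, beside 19.2% and 6.98% of all genes, with a median of -0.06. The tumor against the 12M WT liver gave 16 higher and 20 lower of 78, or 20.5% and 25.6% beside 27.4% and 9.49% of all genes. The non-tumor section against the same control gave 1 higher and 2 lower of 68, or 1.47% and 2.94% beside 6.14% and 1.73%. The WT livers of both ages gave 4 and 2 of 66, or 6.06% and 3.03% beside 2.39% and 2.09%.

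The methionine cycle list had 5 of 8 genes over the minimum lower in the tumor against non-tumor tissue and none higher, with a median log2 ratio of -1.22. Beside the 3 members and Bhmt2 these included Adk, the kinase that removes the adenosine Ahcy releases, at -1.22. Rescaling by hepatocyte markers left 3 of the 5, the members, without Adk and Bhmt2. The share of all genes called lower was 8.43%. At 2M the same list had 2 lower, both members, beside 6.98% of all genes, and a median of -0.09. Of the 8 methyltransferases of small molecules, 3 were lower in the tumor, among them Pemt, which makes phosphatidylcholine with S-adenosylmethionine, at -1.42, and Nnmt, which methylates nicotinamide, at -2.71. At 2M Inmt was the gene called lower, from 1097 FPKM in WT to 48.5 in HKO, a log2 ratio of -4.50. Among 5 genes of choline and betaine oxidation, which supplies the betaine for Bhmt, Dmgdh was lower in the tumor at -1.50 and Sardh, which breaks down the product of Gnmt, was lower at 2M at -1.03. The single call at 2M was lost with TPM and with rescaling by hepatocyte markers, while rescaling by the median ratio gave 4. Of 7 cytosolic folate genes over the minimum, 2 were lower in the tumor, Shmt1 and Aldh1l1, and none was higher. Folr2, a folate receptor known from macrophages, was at 9.53 FPKM in non-tumor tissue and at 0.0630 in the tumor, on 444 and 3 fragments, with an interval of 0.00136 to 0.0194 for the ratio. At 2M its log2 ratio was 1.13, a call that was lost after rescaling by the median ratio. The Kupffer cell markers Clec4f, Marco, Vsig4 and Cd5l were likewise near 0 in the tumor, at 1, 1, 6 and 29 fragments against 2758, 1796, 820 and 3297 in non-tumor tissue, and their part was not tested.

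Of 12 genes that use serine or glycine, 1 was higher in the tumor against non-tumor tissue, Gldc of the glycine cleavage system at 1.11, and 4 were lower, among them Glyat, which conjugates glycine, at -1.04 and Agxt, which removes glyoxylate to glycine, at -1.13. The shares of all genes called were 17.7% higher and 8.43% lower. Rescaling by hepatocyte markers left 1 of the 4 lower genes, Shmt1, and rescaling by the median ratio ended the call of Gldc. Glyat was also lower at 2M, at -1.45. Of 7 purine genes, 2 were higher in the tumor, Impdh1 at 1.97 and Adsl at 1.37, and none was lower. The median was 0.31, beside 0.23 over all genes, of which 17.7% were called higher. In the list of polyamine synthesis and methionine salvage none of 10 was called in the tumor. At 2M, 2 of 9 were higher and 1 was lower, beside 19.2% and 6.98% of all genes. Sat1, which acetylates spermidine, was higher at 1.41, and rescaling by the median ratio left 1 of the 2 higher genes.

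**Figure D4:**
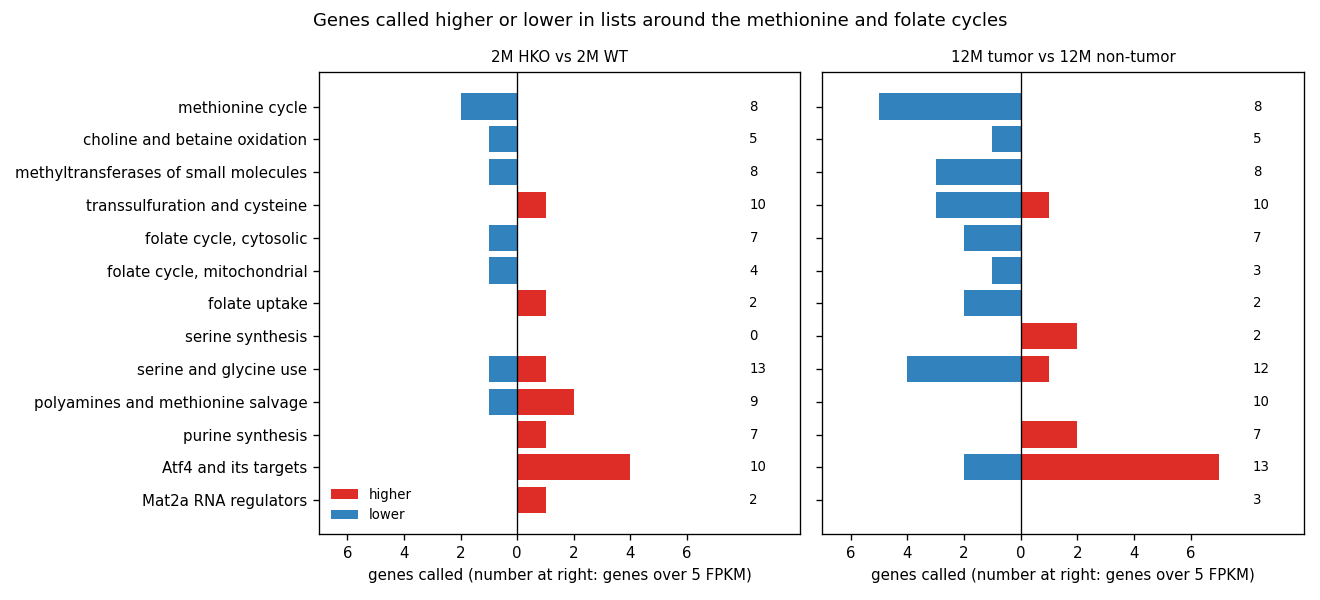
Number of genes called higher (red, to the right) and lower (blue, to the left) in each of 13 lists for 2M HKO against WT (left) and tumor against non-tumor tissue (right), with the number over 5 FPKM at the right edge of each row; members are counted in their lists. The methionine cycle has 5 lower genes and none higher in the tumor, serine synthesis 2 higher and none lower, and the list of Atf4 and its targets 7 higher and 2 lower.

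Atf4 encodes the transcription factor of the amino acid response, and Phgdh, Psat1 and Mthfd2 are among its known targets. Atf4 was at 68.4 FPKM in the 2M WT, 56.5 in the 2M HKO and 53.3 in the 12M WT liver, and 60.8 in non-tumor and 97.1 in tumor tissue. Its log2 ratio was 0.67 for tumor to non-tumor tissue and -0.28 at 2M, neither past the threshold. In the list of Atf4 and its targets, which leaves the members out, 7 of 13 genes over the minimum were higher in the tumor and 2 were lower, Cth and Gpt2, with a median of 1.13, beside 17.7% and 8.43% of all genes and a median of 0.23. The higher ones included Nupr1 at 3.89, Trib3, a feedback inhibitor of the response, at 2.35, the hormone gene Fgf21 at 2.15 and the transcription factor gene Atf3 at 1.93. At 2M, 4 of 10 were higher, Asns, Sesn2, Atf3 and Nupr1, none was lower, and the median was 0.69, beside 19.2% and 6.98% of all genes. With a pseudocount of 1 or rescaling by the median ratio, 2 were higher at 2M. Myc, whose protein is known to bind genes of serine and folate metabolism, was at 3.73, 14.6, 0.807, 14.0 and 15.0 FPKM. It was thus higher in the 3 libraries other than WT, and its part in the members' levels was not tested.

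Other genes with the same pattern over the 5 libraries were sought among 7800 genes by the root mean square difference of log2(FPKM + 0.1), each centred on its own mean. The gene nearest to Gnmt was Ahcy, at a difference of 0.10, and the next were Adtrp and Sord, the gene of sorbitol dehydrogenase. Nearest to Ahcy were Gnmt, Ces1c and Adtrp. Mat1a had no neighbour as near, with Plbd1 at 0.17 followed by Paip2b and Ehd3. Bhmt was nearest to Stoml2, Rad23b and Mpc1-ps, Cbs to Aspscr1, Fam213a and Idh1, and Shmt2 to Ube2r2, Fam149b and Rxra, all genes whose levels varied little. Among the genes near Mthfd2 were Traf7, at 0.12, and Ehbp1l1, at 0.13. Phgdh was nearest to Adgrg1, at 0.16, Exoc3l4 and Mest, and Psat1 to Isyna1, which makes inositol phosphate, at 0.21, Ptgr1 and Smpdl3b. Isyna1 was at 4.37, 42.8, 2.68, 6.43 and 64.7 FPKM. With 5 libraries such likeness is a description of these levels.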

How the data were processed

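RNA-seq of 5 mouse liver libraries was analysed, 1 per group, grouped by the titles. The authors deposited FPKM for 46095 gene records with lengths and coordinates. Bowtie 0.12.2 and GRCm38 are named in the submitters' processing notes, while the counting tool and the use of strand are not given in the sources used here. In each library FPKM times length came in whole steps of a single size (tolerance 0.01) for 98.7% to 98.8% of values, and this step gave the fragments. Even numbers make up 58.8% to 61.0% of the counts 2 to 21, so pairs may have been counted as 2 reads and intervals may be too narrow.

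Ratios were taken as log2 of FPKM + 0.1 for 5 comparisons, with the fold and FPKM thresholds of the study's methods. The EBSeq test of the study was not run. Members and lists were chosen with earlier results of these data known. Named genes are the 10 members, up to 4 called genes per list with the largest ratios, 13 further genes of the pathways whatever their values, and the 3 nearest in pattern to each member. Some genes that this rule names are not reported here. Of 106 listed pathway genes outside the members 105 were matched, all but Sqor, and of the hepatocyte markers Tf was found as Trf. Alternatives were the pseudocount, the FPKM minimum, TPM, rescaling by the median ratio or by hepatocyte markers, and lists without scaffold records. The rule was tested on simulated counts drawn from the 2M WT library with counting error only. That simulation holds no difference between animals, so it does not bear on how far the calls hold beyond these livers. Promoters come from RefSeq GRCm38.p6, which had an entry for 9 members. Software was Python 3.11.15 with scipy 1.17.1, numpy 2.4.6, matplotlib 3.10.9 and pandas 2.3.3.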

Additional observations from a re-analysis of the deposited data

Results flagged for a closer look

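Asns, which encodes asparagine synthetase and is a target of Atf4, moved in opposite directions in the mutant livers of both ages. It was at 2.49 FPKM in the 2M WT liver and 5.94 in the 2M HKO liver, a log2 ratio of 1.22. At 12M it was at 9.07 FPKM in WT liver, 0.467 in non-tumor and 1.20 in tumor tissue, and the log2 ratio of non-tumor tissue to WT was -4.01. The 12M WT liver was the highest of the 5 libraries. With 1 library per group the difference between the ages was not tested.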

How the results depend on the processing

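The counts of members called lower in the tumor against non-tumor tissue and against the 12M WT liver, and at 2M, stayed within 1.5 times under all alternatives. The counts of members called higher depended on the minimum level, because Mthfd2, Phgdh and Psat1 lie near or below 5 FPKM. For tumor against non-tumor tissue, and for tumor against the 12M WT liver, the count was 3 in place of 1 with a minimum of 1 FPKM, with none and with TPM. At 2M it was 3 in place of 0 with a minimum of 1 FPKM, 4 with none and 1 with TPM. FPKM summed to between 495688 and 533528 per library, so TPM values were larger than FPKM, while the minimum stayed at 5. The TPM setting thus also lowered the minimum and is not a check of scaling alone. Without a minimum, 2 members, Phgdh and Psat1, were higher in non-tumor tissue than in the 12M WT liver, and between the WT livers 1 was higher, Phgdh, and 1 lower, Psat1. Rescaling by the median ratio made 1 member, Gnmt, lower in non-tumor tissue than in the 12M WT liver. Of the counts of called genes in lists, 810 stayed within 1.5 times and 100 did not. An alternative chosen after seeing the data, leaving out records on scaffolds, moved none of 130. Of the members' log2 ratios, 102 stayed within their counting interval and 98 did not, and no called one changed sign. The planned ratio of Mat1a to Mat2a is not given, since the Mat2a record lies on a scaffold. No paired analysis was possible because each group has 1 library, and no replicate could be left out. Counts of Phgdh and Psat1 in the WT livers, 0 to 32 fragments, limit their ratios.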

Other observations

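Among the wider pathway genes, 4 were higher and 2 lower in the 12M than in the 2M WT liver. Csad, which encodes an enzyme of taurine synthesis, was at 21.8 FPKM in the 2M WT liver and 14.0 in the 2M HKO liver, and at 147, 183 and 84.3 FPKM in the 12M WT liver, the non-tumor section and the tumor. Its log2 ratio of 12M to 2M WT was 2.74, and it was called lower in the tumor against non-tumor tissue at -1.12, a call that was lost after rescaling by hepatocyte markers. Fpgs, which encodes the enzyme that retains folates in cells by adding glutamates, was at 18.1 and 22.4 FPKM at 2M and at 55.5, 49.7 and 36.4 FPKM at 12M in the same order of libraries, with a log2 ratio of 1.61 between the WT livers. Each age is 1 WT liver, so that age and animal cannot be told apart.

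Oat, which encodes ornithine aminotransferase of hepatocytes near the central vein, was at 262, 167, 600.0, 360 and 6.57 FPKM, and Glul, the gene of glutamine synthetase in the same zone, at 238, 106, 373, 418 and 62.1 FPKM. In both the tumor was lowest, as it was for Mat1a, Gnmt and Ahcy.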
